A study of Homo sapiens with 8 samples.

Results

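The nuclear-encoded subunits of the respiratory chain and ATP synthase were followed across MDA-MB-231 breast cancer cells that had been edited at ETV1, ETV4 and ETV5 or given a control guide RNA. Members were chosen by gene symbol alone: 75 of the 61228 rows of the count table carry a symbol of a structural subunit of complexes I to V, and the rule itself uses no measured value. There were 36 members in complex I, 4 in complex II, 9 in complex III, 11 in complex IV and 15 in complex V. NDUFA4, whose symbol names complex I, was placed with complex IV, where the protein is known to sit. In all, 74 of the 75 members were among the 15568 genes with enough counts to be tested. The exception, NDUFA7, an accessory subunit of complex I, had between 0 and 3 counts in any library, too few to test. Of its exon bases, 32.3% overlap another gene on the same strand. How shared reads were counted is not given, so these counts do not give its mRNA level.

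MDA-MB-231 is an established line of triple-negative breast cancer cells. The study had 8 libraries in 4 groups of 2: knockout cells in collagen I gels, control cells in collagen I gels, knockout cells as monolayers on plastic, and control cells as monolayers on plastic. The knockout label names Cas9 and guides to ETV1, ETV4 and ETV5, which encode ETS transcription factors of the PEA3 subfamily. The control gels' label names Cas9 with a control guide and the control monolayers' label a control guide alone, so whether the control monolayers received Cas9 is not given. Per the labels all cells had been nucleofected, and no clones are named. Gels were digested with collagenase and pipetted before lysis, whereas monolayers were lysed directly, so culture and harvest cannot be told apart in any comparison of gels with monolayers. The labels allow a lower or a higher collagen concentration without assigning either to a sample. Separate cultures behind the 2 libraries of a group are not stated, so the spread that the p-values below rest on may be technical. In bulk RNA, fewer cells of a kind and less RNA per cell cannot be told apart.

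The respiratory chain passes electrons from NADH (complex I) and succinate (complex II) through ubiquinone, complex III and cytochrome c to oxygen at complex IV. The protons pumped along the way drive ATP synthase, complex V. Most subunits are encoded in the nucleus, translated in the cytoplasm and imported, and a few hydrophobic ones are encoded in mitochondrial DNA, so the enzymes depend on expression of both genomes. Tumour cells often rely on glycolysis, and low oxygen is known to switch on genes that lower mitochondrial respiration.

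Library totals ran from 15824504 to 23896899 counts, and replicate libraries varied by a biological coefficient of variation of 4.03%. ETV1 had 137.7 and 140.7 CPM (counts relative to the TMM-scaled library total) in knockout gels against 221.5 and 216.9 CPM in control gels, and 135.6 and 151.4 CPM in knockout monolayers against 200.2 and 204.7 CPM in control monolayers. Its log2 change was -0.66 in gels and -0.50 in monolayers, and that of ETV4 was -0.57 in gels and -0.45 in monolayers, all past the threshold. ETV5 had log2 changes of 0.02 in gels and 0.03 in monolayers, and neither passed the test. An mRNA count does not measure whether the gene was edited. The 7 genes listed for the line include ESR1, PGR and ERBB2, the receptors that triple-negative cells lack by definition. Together the 7 summed to between 6163 and 8253 CPM, and the sum does not tell which of them were expressed. Markers of leukocytes summed to between 0.912 and 2.84 CPM, endothelial markers to between 3.51 and 8.38 CPM, fibroblast markers to between 9.30 and 19.0 CPM and muscle markers to at most 0.062 CPM.

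Together the members took 0.690% and 0.718% of all counts in knockout gels, against 0.651% and 0.647% in control gels, and 0.686% and 0.681% in knockout monolayers, against 0.650% and 0.659% in control monolayers. Both knockout groups lay above their controls. After scaling by TMM, which corrects for differences in library composition, the members' CPM summed to 7089 and 7349 in knockout gels, 6687 and 6680 in control gels, 6716 and 6671 in knockout monolayers and 6253 and 6473 in control monolayers. Knockout gels were highest and control monolayers lowest, while control gels and knockout monolayers lay at about the same level. Complex V, the ATP synthase, held the largest part of the sum, with 2527 and 2611 CPM in knockout gels against 2401 and 2367 CPM in control gels, and 2373 and 2371 CPM in knockout monolayers against 2171 and 2287 CPM in control monolayers. Complex II, with 222.1 and 228.4 CPM in knockout gels against 216.5 and 211.9 CPM in control gels, held the smallest.

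**Figure D1:**
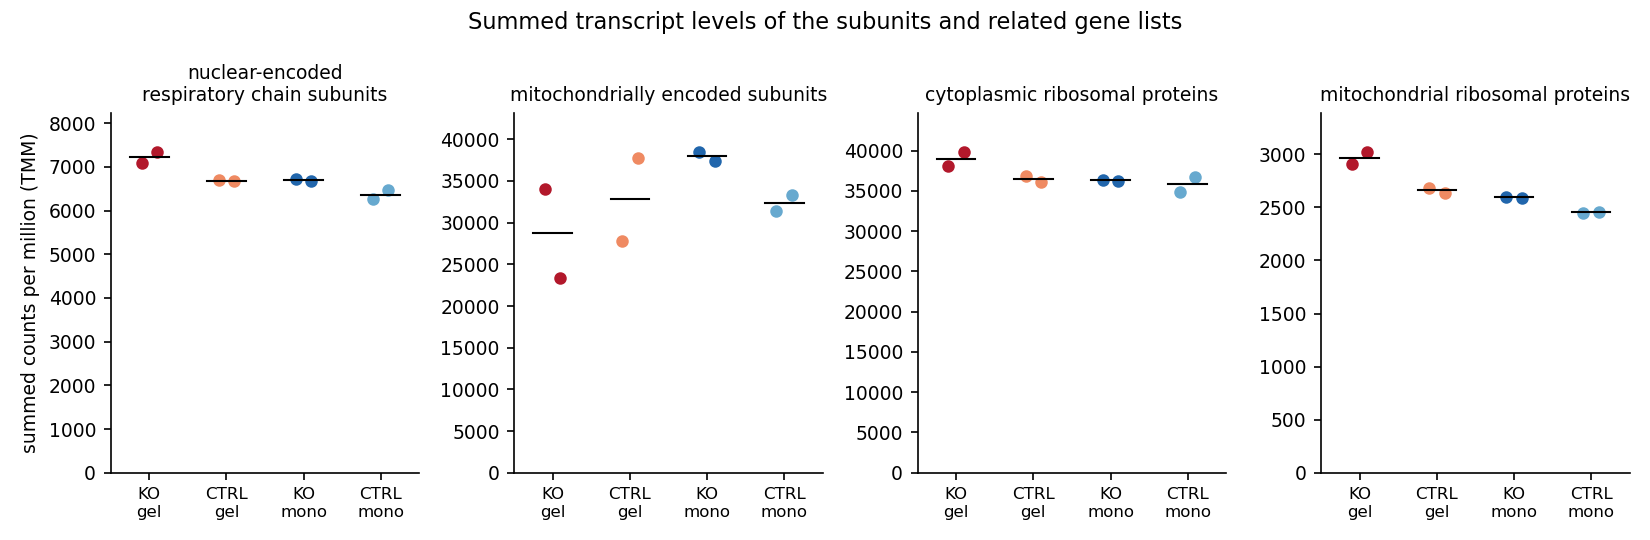
Summed CPM per library (TMM-scaled, axis from 0) of the nuclear-encoded subunits, the mitochondrially encoded subunits, the cytoplasmic ribosomal proteins and the mitochondrial ribosomal proteins, with a point for each of the 2 libraries of a group. The nuclear-encoded subunits are highest in knockout gels (7089 and 7349 CPM), whereas the mitochondrially encoded subunits in knockout gels (34087 and 23419 CPM) and control gels (27852 and 37812 CPM) overlap.

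Levels between genes were compared only as CPM per kilobase of a principal transcript, averaged over the 8 libraries. The members of each enzyme differed widely on this scale. In complex V, ATP5F1B, the catalytic beta subunit, stood at 355.9 CPM per kilobase and ATP5PO, a peripheral stalk subunit, at 15.6. In complex IV, COX4I1, a regulatory subunit, stood at 307.1 CPM per kilobase and NDUFA4 at 48.0. In complex III, UQCRH, the hinge protein that helps cytochrome c1 meet cytochrome c, stood at 309.0 CPM per kilobase and UQCRB, a subunit near the quinone site, at 25.4. SDHB, the iron-sulfur subunit of succinate dehydrogenase, stood at 50.8 CPM per kilobase and SDHC, a membrane anchor of the same enzyme, at 6.30. In complex I, NDUFS5, an accessory subunit on the intermembrane side, stood highest at 237.4 CPM per kilobase, and NDUFA9, an accessory subunit of the peripheral arm, and NDUFV2, an iron-sulfur core subunit, lay at 0.887 and 0.976. The low values of SDHC, NDUFA9 and UQCRB are divided by reference transcripts of 13566, 8363 and 5575 bases, against a median of 793 bases over the tested members, so the transcript chosen as reference sets them in part. NDUFV2 had between 6 and 26 counts in a library, and 28.4% of its annotated exon bases are shared with other genes.

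Promoter sequences are shown for members on which the results below turn: NDUFS6, ATP5MC1 and UQCRQ, whose rise in knockout gels held under every setting tried, and COX8A and NDUFB10, which were higher in all 4 comparisons between groups. Each is the plus strand, 5′ to 3′, of the 250 bases before the RefSeq start of the gene on GRCh38.p14, at chr5:1801157-1801406 for NDUFS6, chr17:48892537-48892786 for ATP5MC1, chr5:132866392-132866641 for UQCRQ, chr11:63974370-63974619 for COX8A and chr16:1959288-1959537 for NDUFB10. Capitals mark the letters CCGGAAG or GCATGCGC, or the reverse complement of either. CCGGAAG was taken as a site of the ETS family, to which ETV1, ETV4, ETV5 and GABPA belong. GCATGCGC was taken as a site of NRF1, a known activator of respiratory genes. Shorter or variant forms of these sites were not searched for and are not marked. NDUFS6 held the NRF1 letters on the minus strand from base -46, UQCRQ the ETS letters on the plus strand from base -54 and COX8A the ETS letters on the minus strand from base -18, counted back from the RefSeq start. GENCODE release 29 starts UQCRQ at base 132866560 and COX8A at base 63974607, inside these windows. The positions thus depend on the annotation used. ATP5MC1 and NDUFB10 held neither of these exact strings.
NDUFS6: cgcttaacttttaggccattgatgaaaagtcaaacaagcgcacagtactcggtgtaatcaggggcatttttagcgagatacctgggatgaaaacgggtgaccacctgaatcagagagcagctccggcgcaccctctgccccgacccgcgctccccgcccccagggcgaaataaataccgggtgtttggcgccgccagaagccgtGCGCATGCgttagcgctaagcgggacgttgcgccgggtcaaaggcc
ATP5MC1: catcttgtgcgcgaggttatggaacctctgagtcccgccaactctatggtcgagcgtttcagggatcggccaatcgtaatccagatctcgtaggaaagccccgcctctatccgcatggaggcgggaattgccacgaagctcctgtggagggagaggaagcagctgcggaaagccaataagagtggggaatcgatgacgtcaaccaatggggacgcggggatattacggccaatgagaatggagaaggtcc
UQCRQ: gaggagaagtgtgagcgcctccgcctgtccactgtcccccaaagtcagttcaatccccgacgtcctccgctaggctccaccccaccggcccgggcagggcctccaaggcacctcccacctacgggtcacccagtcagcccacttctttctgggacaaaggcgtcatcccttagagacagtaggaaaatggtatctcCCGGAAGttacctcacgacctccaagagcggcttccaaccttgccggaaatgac
COX8A: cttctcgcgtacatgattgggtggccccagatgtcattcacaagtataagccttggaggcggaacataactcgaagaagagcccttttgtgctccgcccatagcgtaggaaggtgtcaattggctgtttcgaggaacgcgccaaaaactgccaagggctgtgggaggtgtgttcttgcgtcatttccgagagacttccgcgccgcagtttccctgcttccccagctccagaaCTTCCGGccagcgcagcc
NDUFB10: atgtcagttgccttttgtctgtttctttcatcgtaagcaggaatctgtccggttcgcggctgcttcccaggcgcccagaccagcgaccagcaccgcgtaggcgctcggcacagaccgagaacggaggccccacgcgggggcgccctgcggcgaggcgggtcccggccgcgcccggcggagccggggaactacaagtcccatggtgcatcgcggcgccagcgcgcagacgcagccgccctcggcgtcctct

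A RefSeq promoter was at hand for 61 of the 75 members, 60 of them tested. In these 250-base windows, the ETS letters on either strand stood in 16 of the 60 members (26.7%), against 15.8% of the 11102 tested genes with a promoter and 8.82% of all 27305 promoters. The NRF1 letters stood in 12 members (20%), against 4.74% of tested genes and 2.81% of all promoters. The letters AAGATGGC of YY1, another factor tied to respiratory genes, stood in 1 member (1.67%), against 1.90% of tested genes. With the 50 bases after the start included, they stood in 10 members (16.7%) and 5.30% of tested genes. The letters ACGTG, the core of the low-oxygen response element, stood in 14 members (23.3%) and 23.4% of tested genes. Among members with a promoter, the ETS letters stood in 4 of 11 that were higher in knockout gels and in 12 of 49 that were not, and in 2 of 8 that were higher in knockout monolayers and in 14 of 52 that were not. The NRF1 letters stood in 4 of 11 that were higher in knockout gels and in 8 of 49 that were not, and in 0 of 8 that were higher in knockout monolayers and in 12 of 52 that were not. The 1 member with the YY1 letters in the 250 bases passed in none of the comparisons. A match of letters is a description of sequence and says nothing of binding in these cells.

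In collagen gels, knockout cells had more mRNA than control cells of 17 of the 74 subunits tested (adjusted p under 0.05, edgeR quasi-likelihood test with Benjamini-Hochberg adjustment over all 15568 genes), spread over all 5 complexes. That is 23.0% of the members, where 11.5% of all tested genes were higher and 12.4% lower. No subunit was lower, and at an unadjusted p under 0.05, 32 were higher and 0 lower. The share of all genes at an unadjusted p was not counted, here or below. DESeq2 called 10 higher and 0 lower. Of the 30651 genes it fitted, without the filter on low counts, 3.90% were called higher. The median log2 change of the members was 0.12, with 69 above 0, against -0.00 over all tested genes. By complex, 5 of 35 tested members rose in complex I, 1 of 4 in complex II, 3 of 9 in complex III, 4 of 11 in complex IV and 4 of 15 in complex V, with median log2 changes of 0.09, 0.09, 0.15, 0.13 and 0.12. The changes were small: the called ones ran from 9.25% for ATP5F1B to 29.5% for NDUFS6.

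NDUFS6, a zinc-binding accessory subunit of the peripheral arm of complex I, had 85.5 and 87.3 CPM in knockout gels, 65.45 and 68.1 CPM in control gels, 70.9 and 67.85 CPM in knockout monolayers and 63.9 and 60.9 CPM in control monolayers. Both knockout gels stood apart from the other 6 libraries. Its log2 change in gels was 0.37 ± 0.059 (SE, 95% interval 0.25 to 0.49, adjusted p = 9.52e-06). ATP5MC1 encodes subunit c, the proton-carrying ring of the ATP synthase rotor, which ATP5MC2 and ATP5MC3 also encode. It had 82.5 and 85.4 CPM in knockout gels, 65.9 and 68.9 CPM in control gels, 64.8 and 64.3 CPM in knockout monolayers and 60.0 and 62.9 CPM in control monolayers. Here too the knockout gels alone were high, and the log2 change in gels was 0.32 ± 0.059 (SE, adjusted p = 0.000111). ATP5MC1 has 7 named pseudogenes, with which reads may be shared.

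CYC1, cytochrome c1, the heme protein of complex III that hands electrons to cytochrome c, had 297.8 and 302.9 CPM in knockout gels, 257.8 and 251.1 CPM in control gels, 229.5 and 233.2 CPM in knockout monolayers and 225.3 and 239.0 CPM in control monolayers. Knockout gels were highest, control gels next, and both kinds of monolayer overlapped. The log2 change in gels was 0.24 ± 0.046 (SE, adjusted p = 0.000177). UQCRQ, a small subunit of complex III, had 88.4 and 95.8 CPM in knockout gels against 78.4 and 72.8 CPM in control gels, without overlap (log2 change 0.28 ± 0.061, SE, adjusted p = 0.000589). NDUFA4, a complex IV subunit, had 109.5 and 113.5 CPM in knockout gels against 91.4 and 94.7 CPM in control gels (log2 change 0.26 ± 0.054, SE, adjusted p = 0.000421). Of the exon bases of UQCRQ, 20.8% overlap GDF9 on the opposite strand, and the strand setting of the counting is not given. The calls of NDUFS6, ATP5MC1, CYC1, UQCRQ and NDUFA4 held in all 17 alternative fits, each with 1 choice changed.

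**Figure D2:**
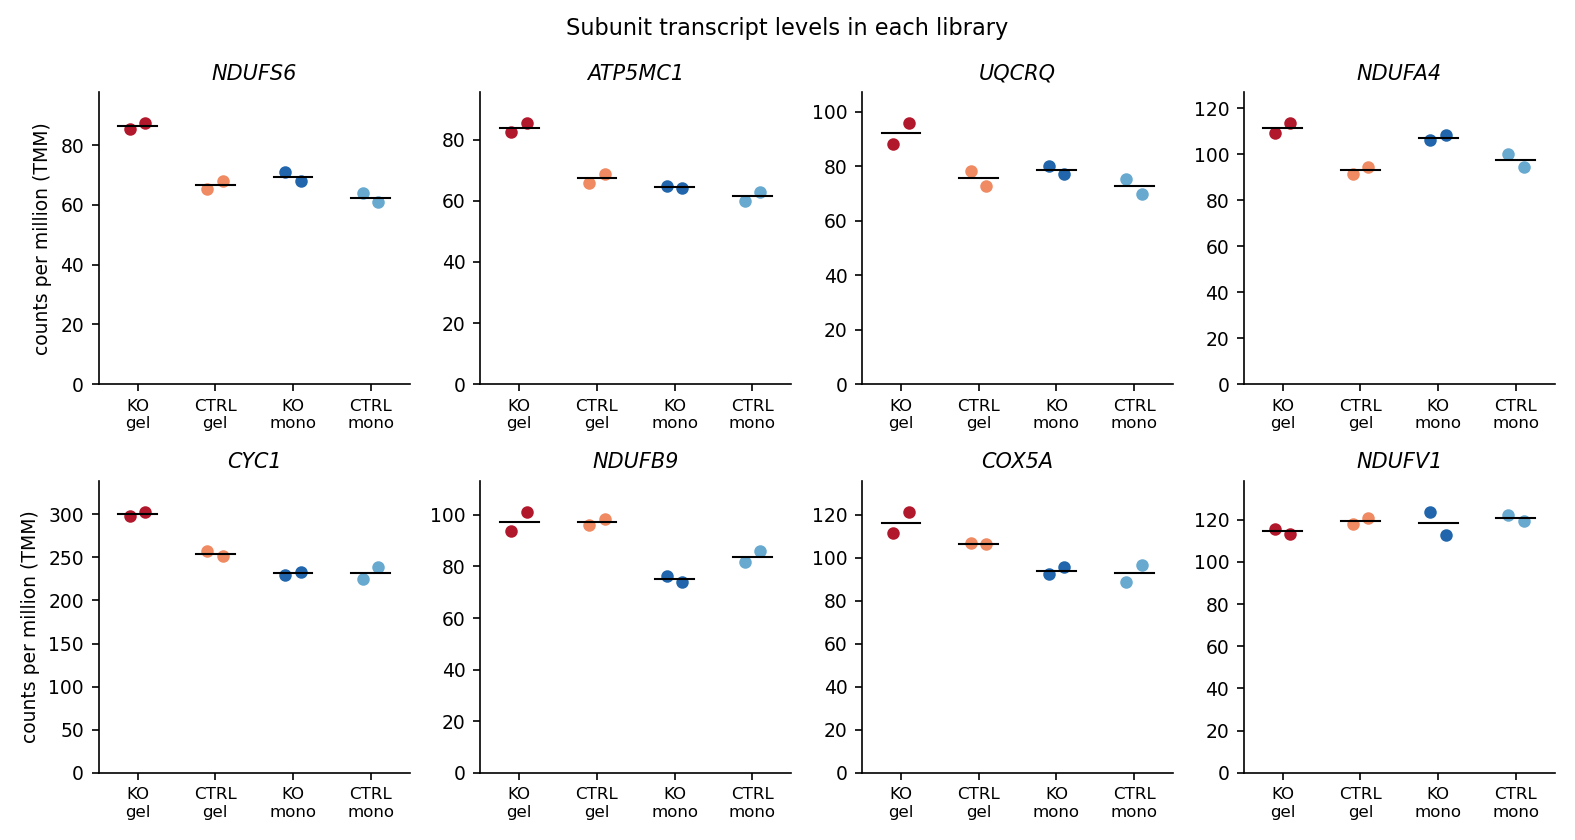
CPM per library (TMM-scaled, each axis from 0) of NDUFS6, ATP5MC1, UQCRQ, NDUFA4, CYC1, NDUFB9, COX5A and NDUFV1 in the 4 groups, with a point per library and a bar at the group mean of 2. NDUFS6 and ATP5MC1 are high in the knockout gels alone, NDUFB9 and COX5A in both kinds of gel, and NDUFV1 lies between 112.8 and 123.8 CPM in all groups.

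The other members that rose in gels changed less. In complex I these were NDUFS7, the core subunit that holds the last iron-sulfur cluster before ubiquinone (log2 change 0.24, adjusted p = 0.0086), NDUFB10, an accessory subunit of the membrane arm (0.21, adjusted p = 0.01), NDUFS5 (0.19, adjusted p = 0.00823) and NDUFA12, of the peripheral arm (0.19, adjusted p = 0.0215). In complex III, UQCRB had a log2 change of 0.19 (adjusted p = 0.00401). In complex IV the small structural subunits COX6A1, COX8A and COX7C had log2 changes of 0.19, 0.16 and 0.13 (adjusted p = 0.0262, 0.0465 and 0.0498). In complex V these were ATP5MF, a membrane subunit (0.21, adjusted p = 0.0449), ATP5F1E, of the central stalk (0.15, adjusted p = 0.0418), and ATP5F1B (0.13, adjusted p = 0.0352). ATP5F1B, the most abundant member, had 711.6 and 714.2 CPM in knockout gels against 650.2 and 654.9 CPM in control gels, without overlap. NDUFS7 shares 49.1% of its exon bases with genes on the opposite strand.

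Complex II was represented by SDHB, which had 63.8 and 61.8 CPM in knockout gels against 57.2 and 52.45 CPM in control gels, without overlap. Its log2 change was 0.19 (adjusted p = 0.0262), and the call was lost in 5 of 17 alternative fits, with DESeq2 (adjusted p = 0.0739), at an adjusted p under 0.01, without control gel library 2 and without either knockout gel library, over adjusted p of 0.0152 to 0.317. The flavoprotein SDHA and the membrane anchors SDHC and SDHD had log2 changes of 0.15, 0.01 and 0.02 and did not pass the test (adjusted p = 0.372, 0.923 and 0.838). The SDHA count is uncertain because 3 pseudogenes carry its name.

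Other core subunits did not pass the test in gels. NDUFV1, which binds NADH and flavin, had 115.7 and 113.3 CPM in knockout gels, 118.1 and 121.1 CPM in control gels, 123.8 and 112.8 CPM in knockout monolayers and 122.4 and 119.6 CPM in control monolayers, and its log2 change in gels was -0.06 (adjusted p = 0.437). NDUFS1, an iron-sulfur core subunit of complex I, COX4I1 and ATP5F1A, the alpha subunit of the ATP synthase head, had log2 changes of 0.07, 0.06 and 0.06 in gels. UQCRC1, a core protein of complex III, had a log2 change of 0.03, and UQCRFS1, the Rieske iron-sulfur protein, one of 0.15 (adjusted p = 0.0578). Among the lowest values in gels were those of UQCRC2, the other core protein (-0.09), and NDUFV1 (-0.06), neither of which passed the test.

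The count of 17 depended on single libraries. It was 7 without control gel library 1 and also without control gel library 2, 8 without knockout gel library 2, 27 without knockout gel library 1 and 26 without knockout monolayer library 1. The members' median log2 change was 0.07 without knockout gel library 2 and 0.16 without knockout gel library 1, and it was above 0 in every fit run.

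**Figure D3:**
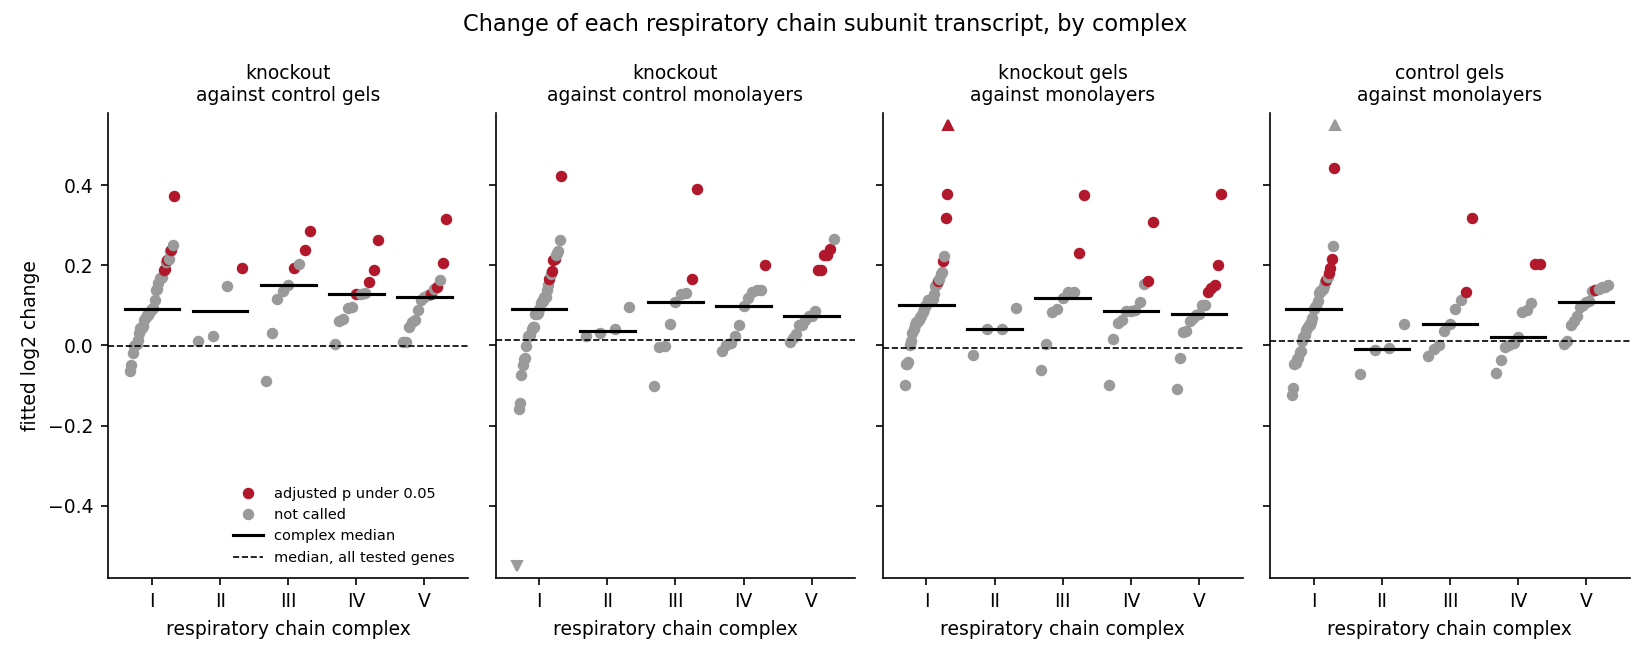
Log2 change of each tested subunit by complex in 4 panels: knockout against control gels, knockout against control monolayers, knockout gels against monolayers and control gels against monolayers. Red points passed the adjusted p threshold, black bars are complex medians, the dashed line is the median of all genes, and NDUFV2 is drawn as a triangle at the edge where its value (-0.69, 1.42 and 0.71) lies past the axis. More points lie above than below 0 in each panel, although in control gels against monolayers the members' median of 0.08 becomes -0.01 when libraries are scaled by their totals alone.

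As monolayers, knockout cells had more mRNA than control cells of 13 of the 74 subunits tested, or 17.6%, where 9.60% of all tested genes were higher and 9.60% lower. The members' median log2 change was 0.08, with 62 above 0, against 0.01 over all genes. None was lower in edgeR's quasi-likelihood test or in DESeq2, which called 4 higher; at an unadjusted p under 0.05, 25 were higher and 1, NDUFB9, lower. NDUFB9 was called lower when counts were scaled by library totals or by upper quartiles, were corrected for transcript length and GC content, or were fitted with the replicate block. The 13 were 5 in complex I, 0 in complex II, 2 in complex III, 1 in complex IV and 5 in complex V.

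The members with the largest log2 changes in monolayers were lowly expressed. UQCR11, a small accessory subunit of complex III, had 16.4 and 16.6 CPM in knockout monolayers against 11.95 and 13.4 CPM in control monolayers (log2 change 0.39 ± 0.105, SE, adjusted p = 0.00744). In gels it had 17.2 and 18.9 CPM in knockout cells against 15.8 and 15.6 CPM in control cells. The control monolayers were thus the lowest of the 4 groups. NDUFA9 was also lowest in control monolayers, with 7.67 and 7.85 CPM in knockout monolayers against 5.715 and 5.89 CPM in control monolayers and 8.60 and 7.87 CPM in knockout gels against 8.21 and 7.52 CPM in control gels. Its log2 change in monolayers was 0.42 (adjusted p = 0.0388).

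Of the 13 that rose in monolayers, 5 were ATP synthase subunits. ATP5MC3, another gene for subunit c, had 162.9 and 156.4 CPM in knockout monolayers against 142.6 and 137.3 CPM in control monolayers (log2 change 0.19 ± 0.051, SE, adjusted p = 0.00724). ATP5F1E had 165.1 and 174.1 CPM in knockout monolayers against 148.6 and 149.1 CPM in control monolayers (log2 change 0.19, adjusted p = 0.00989). The groups did not overlap for either gene. ATP5F1D of the central stalk and ATP5MF and ATP5MG of the membrane part had log2 changes of 0.23, 0.22 and 0.24 (adjusted p = 0.011, 0.0363 and 0.0434). In complex I, NDUFV3 and NDUFB11, both accessory subunits, had log2 changes of 0.21 (adjusted p = 0.0447 and 0.0458), NDUFB10 of 0.19 (adjusted p = 0.0356) and NDUFS5 of 0.17 (adjusted p = 0.0244). UQCRB and COX8A had log2 changes of 0.17 and 0.20 (adjusted p = 0.017 and 0.0157). ATP5MC1 and CYC1, which rose in gels, had log2 changes of 0.07 and -0.00 in monolayers (adjusted p = 0.452 and 0.973). No call in monolayers held in all 17 alternative fits. The count of 13 was 1 without control monolayer library 1, 5 without control monolayer library 2, 3 without knockout monolayer library 1 and 6 without knockout monolayer library 2, and it was 6 when only the monolayers were fitted.

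The comparisons of knockout with control cells in gels and in monolayers share no library. In both, 61 of 74 members had a positive log2 change. Of all 15568 tested genes, 7754 had a positive change in gels and 8186 in monolayers, and those positive in both were not counted. ATP5F1E, ATP5MF, COX8A, NDUFB10, NDUFS5 and UQCRB passed the test in both, which is 35.3% of the 17 called in gels and 46.2% of the 13 called in monolayers. Of all tested genes, 658 were higher in both, which is 36.8% of those higher in gels and 44% of those higher in monolayers, so the shares of the members lay near those of all genes. NDUFB10 had 70.8 and 78.6 CPM in knockout gels against 63.6 and 65.2 CPM in control gels, and 64.8 and 64.4 CPM in knockout monolayers against 56.7 and 56.8 CPM in control monolayers. The knockout libraries lay above the controls in each culture, and control gels and knockout monolayers overlapped. COX8A had 80.6 and 83.3 CPM in knockout gels against 74.3 and 72.6 CPM in control gels, and 75.6 and 71.2 CPM in knockout monolayers against 64.0 and 63.7 CPM in control monolayers, with the same order. Of the exon bases of COX8A, 34.5% overlap another gene on the same strand.

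**Figure D4:**
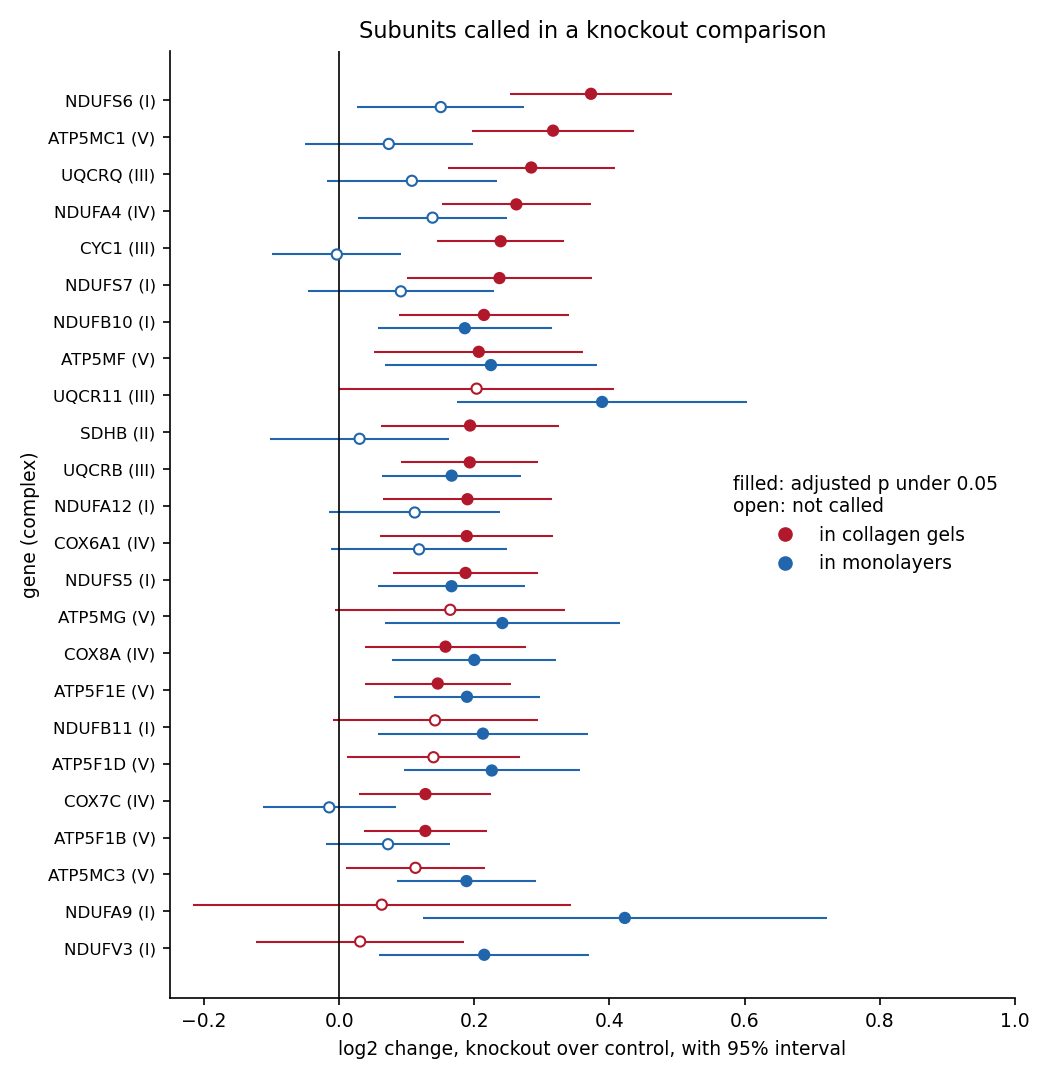
Log2 change, knockout against control, with its 95% interval for the 24 subunits that passed the test in gels or in monolayers (red for gels, blue for monolayers, filled where the adjusted p is under 0.05). All calls were higher, so the filled points lie above 0 by selection. CYC1 (0.24 in gels, -0.00 in monolayers) was the only 1 of the 24 whose difference between cultures passed the test.

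The difference between the knockout effect in gels and that in monolayers was tested for every member as an interaction. CYC1 alone passed, 1 of 74 or 1.35% of members, where 2.67% of all tested genes had a positive and 3.94% a negative interaction. Its log2 change was 0.24 higher in gels than in monolayers (± 0.066, SE, 95% interval 0.11 to 0.38, adjusted p = 0.0188). The CYC1 interaction kept its sign in all 16 alternative fits but lost the call in 6: at an adjusted p under 0.01 and without control monolayer library 2, control gel library 1, control gel library 2, knockout monolayer library 2 or knockout gel library 2, over adjusted p of 0.00117 to 0.144. NDUFS6 and ATP5MC1 had interactions of 0.22 and 0.24 (adjusted p = 0.119 and 0.0835), so their larger changes in gels were not shown to differ from those in monolayers. At an unadjusted p under 0.05, 6 members had a positive interaction and 0 a negative one, and DESeq2 called 1 positive and 0 negative. Of the 30651 genes DESeq2 fitted, 0.953% were called positive.

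In knockout cells, gels had more mRNA than monolayers of 14 of the 74 subunits, or 18.9%, where 20.1% of all tested genes were higher and 17.9% lower. In this main fit, the share of members that rose was thus close to that of all genes. The members' median log2 change was 0.09, with 65 above 0, against -0.01 over all genes. None was lower, and at an unadjusted p under 0.05, 24 were higher and 0 lower, and DESeq2 called 10 higher and 0 lower. Of the 30651 genes DESeq2 fitted, 7.71% were called higher. With libraries scaled by their totals alone, 7 were higher and 2, UQCRC1 and COX7B, lower, the members' median was 0.02 and that of all genes -0.07. With correction for transcript length and GC content, 30 of the 74 were higher and 1, SDHC, lower, where 21.8% of all genes were higher. The share of members that rose was then above that of all genes. The rises came in complex I (5 members), complex III (2), complex IV (2) and complex V (5), and in complex II 0 of 4 members passed. Without knockout gel library 2, the count was 8, and without knockout gel library 1 the median was 0.15.

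Of these members CYC1, ATP5MC1 and NDUFB9 each had a log2 change of 0.38 (± 0.047, 0.060 and 0.058, SE), with adjusted p of 8.15e-08, 5.66e-06 and 3.96e-06. NDUFB9, an accessory subunit of the membrane arm of complex I, had 93.6 and 101.2 CPM in knockout gels against 76.2 and 73.8 CPM in knockout monolayers, and 95.9 and 98.5 CPM in control gels against 81.7 and 86.1 CPM in control monolayers. Gels were high and monolayers low in both genotypes, without overlap. NDUFS6 and COX5A, a subunit on the matrix side of complex IV, had log2 changes of 0.32 and 0.31 (adjusted p = 6.5e-05 and 6.11e-05). These 5 calls held in all 17 alternative fits. UQCRQ followed with 0.23 (adjusted p = 0.00317), a call lost without knockout gel library 2 (adjusted p = 0.0857, over a range of 2.37e-05 to 0.0857). Smaller rises were those of ATP5MC2 (0.20, adjusted p = 0.0132), ATP5F1B (0.15, adjusted p = 0.00757), ATP5PB of the peripheral stalk (0.14, adjusted p = 0.0206) and ATP5F1C, the gamma subunit of the rotor (0.13, adjusted p = 0.0345). NDUFV2 had a log2 change of 1.42 ± 0.48 (SE, adjusted p = 0.013), which rests on 26 and 20 counts in knockout gels against 10 and 6 counts in knockout monolayers. In control cells its counts were 25 and 23 in gels against 25 and 6 in monolayers, which overlap.

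In control cells, gels had more mRNA than monolayers of 10 of the 74 subunits, or 13.5%, where 16.0% of all tested genes were higher and 10.7% lower. The members' median log2 change was 0.08, with 57 above 0, against 0.01 over all genes. None was lower, and at an unadjusted p under 0.05, 21 were higher and 0 lower, and DESeq2 called 3 higher and 0 lower. Of the 30651 genes DESeq2 fitted, 5.17% were called higher. This direction depended on the scaling: with library totals alone, 0 members were higher and 1, NDUFA4, lower, and the members' median was -0.01 while that of all genes was -0.07. With correction for transcript length and GC content, 21 of the 74 were higher, where 18.25% of all genes were. The members with the smallest adjusted p were NDUFB9 (log2 change 0.22, adjusted p = 0.0047), COX5A (0.20, adjusted p = 0.00735) and COX8A (0.20, adjusted p = 0.00999). COX5A had 106.8 and 106.2 CPM in control gels against 88.9 and 96.7 CPM in control monolayers, and 111.4 and 121.4 CPM in knockout gels against 92.4 and 95.8 CPM in knockout monolayers. Gels exceeded monolayers in both genotypes. NDUFA9 and UQCR11 had larger log2 changes of 0.44 and 0.32 (adjusted p = 0.02 and 0.0214) at their low levels, and NDUFB10, CYC1, NDUFB7, ATP5F1C and NDUFA6 had log2 changes of 0.18, 0.13, 0.16, 0.14 and 0.19. No call held in all 17 alternative fits, and the count was 0 without control monolayer library 1 (median log2 change 0.03), 1 without control gel library 1, 3 without control gel library 2, 5 without knockout monolayer library 1 and 6 without knockout gel library 1.

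The comparisons of gels with monolayers in knockout and in control cells share no library. In both, 52 of 74 members had a positive log2 change under TMM scaling. Of all 15568 tested genes, 7661 had a positive change in knockout cells and 8074 in control cells, and those positive in both were not counted. ATP5F1C, COX5A, COX8A, CYC1, NDUFB10, NDUFB7 and NDUFB9 passed the test in both, which is 50% of the 14 called in knockout cells and 70% of the 10 called in control cells. Of all tested genes, 1614 were higher in both, which is 51.7% of those higher in knockout cells and 64.9% of those higher in control cells. Over the 4 comparisons, 32 members (43.2%) were higher in at least 1, against 32.2% of all tested genes, and 42 passed in none. COX8A and NDUFB10 were higher in all 4, 2.7% of members against 1.99% of all tested genes. The 42 included NDUFS1, NDUFV1, SDHA, SDHC, SDHD, UQCRC1, UQCRFS1, COX4I1 and ATP5F1A.

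The 13 subunits encoded in mitochondrial DNA did not pass the test in any comparison. They summed to 34087 and 23419 CPM in knockout gels, 27852 and 37812 CPM in control gels, 38531 and 37357 CPM in knockout monolayers and 31394 and 33330 CPM in control monolayers. The gel libraries of each genotype were far apart, with the lowest sum in knockout gel library 2, the library with the highest sum of nuclear-encoded subunits. In knockout against control gels the median log2 change of the 13 was -0.22, with all 13 below 0, and in monolayers it was 0.18, with all 13 above 0. At an unadjusted p under 0.05, 0 of the 13 passed in either direction in any comparison, and DESeq2 called 0. Poly(A) selection recovers mitochondrial transcripts unevenly, and mitochondrially encoded genes took 2.65% of the counts in knockout gel library 2 and 3.15% to 4.47% in the other 7. The part of these differences in the members' changes was not tested.

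Genes outside the enzymes themselves were read from lists of known roles. CYCS, cytochrome c, the carrier between complexes III and IV, had 291.6 and 316.1 CPM in knockout gels against 252.2 and 259.7 CPM in control gels, and 255.3 and 252 CPM in knockout monolayers against 232.3 and 221.8 CPM in control monolayers. Knockout libraries lay above their controls in both cultures, with log2 changes of 0.25 in gels and 0.16 in monolayers (adjusted p = 0.000173 and 0.018). Of 14 tissue isoforms and further subunits, 8 were tested. In gels 1 (12.5%) was higher, against 11.5% of all tested genes. In monolayers 2 (25%) were higher, against 9.60%, namely CYCS and the ATP synthase inhibitor ATP5IF1 (0.21, adjusted p = 0.00555). COX4I2, COX6A2 and COX7A1, isoforms of lung and muscle, were at 0 counts in every library, which allows up to 0.121 to 0.186 CPM.

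Assembly factors build the enzymes without staying in them. For the counts that follow, 11.5% of all tested genes were higher in knockout against control gels and 9.60% in monolayers. Of 19 factors of complex I, 4 were higher and 1 lower in knockout against control gels, and 3 (15.8%) higher and 1 lower in monolayers. The factor that fell, the only 1 of the assembly factors listed here in these comparisons, was COA1, also known for a part in complex IV assembly, with 61.0 and 60.1 CPM in knockout gels against 81.8 and 75.4 CPM in control gels, and 71.2 and 67.9 CPM in knockout monolayers against 102.4 and 101.4 CPM in control monolayers. The groups did not overlap in either culture, and the log2 change was -0.38 in gels and -0.55 in monolayers. NDUFAF6 had a log2 change of 0.32 in both cultures (adjusted p = 0.0189 in gels and 0.0277 in monolayers). Of 25 factors of complex IV, 6 (24%) were higher and 0 lower in gels and 3 (12%) higher and 0 lower in monolayers. Among them were COA4, a protein of the intermembrane space (0.32 in gels, adjusted p = 0.000158), and HIGD1A (0.22 in gels and 0.27 in monolayers). Of 10 factors of complexes II and III, 2 were higher in gels and 1 in monolayers, and of 4 ATP synthase assembly factors 0 passed in either.

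The ribosomal proteins served as a comparison with other large, highly expressed assemblies. Of 51 mitochondrial ribosomal proteins, which translate the mitochondrially encoded subunits, 25 were higher and 0 lower in knockout against control gels (median log2 change 0.18), and 7 higher and 0 lower in monolayers (0.08). MRPL3 had 122.4 and 122.6 CPM in knockout gels against 103.5 and 102 CPM in control gels, without overlap (log2 change 0.25). Of 48 cytoplasmic ribosomal proteins, 16 were higher and 0 lower in gels (median 0.09), and 0 higher and 1, RPL12, lower in monolayers (0.03). In gels, the share of the respiratory subunits that rose, 17 of 74 (23.0%), thus lay beside 25 of 51 (49.0%) and 16 of 48 (33.3%) in these lists. Over all tested genes the share was 11.5%. In monolayers 13.7% of the mitochondrial list and 0% of the cytoplasmic list were higher, against 9.60% of all tested genes. In knockout gels against monolayers, 30 mitochondrial ribosomal proteins (58.8%) were higher and 1 lower, against 20.1% of all tested genes higher. With libraries scaled by their totals alone, 19 were higher and 1 lower, against 13.4% of all tested genes higher.

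Among 20 regulators of respiratory genes, of which 19 were tested, TFAM, which packages and transcribes mitochondrial DNA, had 153 and 166.5 CPM in knockout gels against 134.8 and 138.5 CPM in control gels, and 133.9 and 134.5 CPM in knockout monolayers against 118.6 and 117.4 CPM in control monolayers. Its log2 change was 0.23 in gels and 0.19 in monolayers (adjusted p = 0.00117 and 0.0107), and the groups did not overlap. MYC, a known activator of mitochondrial genes, had a log2 change of -0.31 in monolayers, and in knockout cells it was 0.38 higher in gels than in monolayers. Of the 19, 3 were higher and 2 lower in knockout against control gels, where 11.5% of all tested genes were higher and 12.4% lower. In monolayers 2 were higher and 3 lower, against 9.60% and 9.60% of all tested genes. The shares of the regulators called thus lay near those of all genes in both cultures.

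Of 14 genes listed as induced by low oxygen, 12 were tested. This list, like the others, was written with earlier results of these data known, so its shares are a description and not a test. The list joins genes tied to lower respiration with others such as CA9, a carbonic anhydrase, and the oxygen sensors EGLN1 and EGLN3. In knockout against control gels 9 (75%) were lower and 1 higher (median log2 change -0.80), where 12.4% of all tested genes were lower. In monolayers 5 (41.7%) were lower and 1 higher (-0.18), where 9.60% of all tested genes were lower. The gene that was higher in both was HIGD1A, counted above with the complex IV assembly factors. In knockout gels against monolayers 7 (58.3%) were lower and 1 higher (-0.46), where 17.9% of all tested genes were lower. In control gels against monolayers 1 was lower and 6 (50%) were higher (0.19), where 16.0% of all tested genes were higher. BNIP3, which marks mitochondria for removal, had 162.9 and 170.3 CPM in knockout gels against 467.7 and 453.7 CPM in control gels, and 241.8 and 257.6 CPM in knockout monolayers against 309.3 and 340.8 CPM in control monolayers. The groups did not overlap in either culture, and the log2 change was -1.47 in gels and -0.38 in monolayers. PDK1, which keeps pyruvate out of the tricarboxylic acid cycle, had 21.0 and 19.9 CPM in knockout gels against 42.3 and 38.0 CPM in control gels (log2 change -0.97), and LDHA, which makes lactate, 1647 and 1697 CPM against 2614 and 2517 CPM (-0.62). Each of these falls was larger than the largest rise among the subunits in gels, the 0.37 of NDUFS6. Of 21 genes of the tricarboxylic acid cycle and pyruvate entry, 5 (23.8%) were higher and 4 (19%) lower in gels, against 11.5% and 12.4% of all tested genes. In monolayers 0 were higher and 1 (4.76%), SUCLG2, lower, against 9.60% and 9.60%. PC, pyruvate carboxylase, had 86.7 and 77.4 CPM in knockout gels against 112.7 and 110.3 CPM in control gels (log2 change -0.44).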

How the data were processed

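Poly(A) RNA of 8 MDA-MB-231 libraries was sequenced with a stranded kit, per the labels' protocols. The authors deposited whole-number counts per gene symbol, with no normalization. Per the submitters' processing notes, FastQC 0.11.9, STAR 2.7.9a, featureCounts and R 4.1.1 were used with hg38; for the counting, neither annotation nor strand use was stated, so values of paralogs, pseudogene copies and overlapping genes are uncertain. The rule for members uses symbols alone, but it and the gene lists were written with earlier results of these data known.

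Groups were taken from the treatment labels. In R 4.3.3 with edgeR 4.0.16 and limma 3.58.1, the 15568 genes that passed filterByExpr (minimum count 10, holding 99.89% of the counts) were scaled by TMM and fitted as 4 group means over all 8 libraries, with the robust quasi-likelihood F-test and 4 residual degrees of freedom. For CYC1 the test had 34.3 degrees of freedom in all, since it draws on the spread of other genes. Tests were two-sided, and Benjamini-Hochberg adjustment covered the whole set of 15568 genes; calls needed an adjusted p under 0.05. The script was tested on simulated data with 200 changed genes. CPM are TMM-scaled.

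Alternatives were DESeq2 1.42.0, other scalings, no filter, only the groups compared, a replicate block, a length and GC correction (mgcv 1.9.3), an adjusted p under 0.01 and each library left out. Transcript lengths, exon overlaps and pseudogene names came from GENCODE release 29, and promoters from RefSeq (GRCh38.p14), searched on both strands for the letters spelled out. Members were named by a fixed rule: core subunits, up to 4 called per complex and direction with the smallest adjusted p, the 3 highest and 3 lowest changes, the extremes of level per length, and up to 3 called genes of each other list. Other genes were named after their values were seen. The values of 1 subunit and 1 marker gene are not reported here.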

Additional observations from a re-analysis of the deposited data

Results flagged for a closer look

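The knockout effect differed between gels and monolayers, by an edgeR quasi-likelihood test of the interaction adjusted over all tested genes, for 1 subunit and 15 genes of the other lists. Over all 15568 tested genes, 1028 passed, 2.67% with a positive and 3.94% with a negative interaction. The subunit was CYC1, with a log2 change of 0.24 in gels and -0.00 in monolayers (interaction 0.2425), a call lost in 6 of 16 alternative fits.

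Of 12 tested genes listed as induced by low oxygen, 7 (58.3%) had a negative interaction and 0 a positive one, against 3.94% and 2.67% of all tested genes. The list was written with earlier results of these data known, so this share is a description and not a test. The fall was larger in gels for BNIP3 (-1.47 in gels, -0.38 in monolayers, interaction -1.089) and CA9 (-3.58 in gels, -0.85 in monolayers, interaction -2.729). BNIP3L, EGLN3, MXI1 and PDK1, named after their values were seen, had interactions of -0.78, -1.11, -0.69 and -0.68. LDHA had log2 changes of -0.62 in gels and 0.13 in monolayers (interaction -0.7464). Of 21 genes of the tricarboxylic acid cycle and pyruvate entry, 1 (4.76%) had a negative interaction and 0 a positive one. It was PC, pyruvate carboxylase, with -0.44 in gels and 0.03 in monolayers (interaction -0.4769). Of the regulators, MYC had -0.05 in gels and -0.31 in monolayers (interaction 0.2651), and SP1 had 0.09 in gels and -0.17 in monolayers (interaction 0.267). COA4, 1 of 25 complex IV assembly factors (4%), had 0.32 in gels and 0.01 in monolayers (interaction 0.303). None of 13 mitochondrially encoded subunits, 8 isoforms and further subunits and 3 targeted genes passed. Of 19 assembly factors of complex I, 10 of complexes II and III and 4 of ATP synthase, 0 passed.

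Of 48 cytoplasmic ribosomal proteins, 2 (4.17%) had a positive and 1 (2.08%) a negative interaction, against 2.67% and 3.94% of all tested genes. Of 51 mitochondrial ribosomal proteins, 1 (1.96%) had a positive and 0 a negative one. RPL12 had 0.12 in gels and -0.13 in monolayers (interaction 0.251). RPL23 had 0.15 in gels and -0.09 in monolayers (interaction 0.2375). RPL22 had -0.14 in gels and 0.14 in monolayers (interaction -0.282), the opposite sense. MRPL24 had 0.24 in gels and -0.06 in monolayers (interaction 0.2979).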

How the results depend on the processing

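Every median log2 change of the subunits kept its sign except that of control gels against monolayers, which was 0.08 and became -0.0061 with libraries scaled by their totals alone, and that of the interaction when libraries were left out. The number of subunits called moved with the tool and threshold. With DESeq2 it was 10 in knockout against control gels, 4 in knockout against control monolayers and 3 in control gels against monolayers, and at an adjusted p under 0.01 it was 8, 3 and 3, with 8 in knockout gels against monolayers and 0 for the interaction. With a length and GC correction it was 27 in knockout against control gels, 21 in control gels against monolayers, 31 in knockout gels against monolayers and 3 for the interaction. Members have short transcripts, with a median of 793 bases against 2152 over 15180 genes. Without the filter on low counts, or with only the 2 groups compared, it was 6 in knockout against control monolayers, and without the filter 5 in control gels against monolayers. In control gels against monolayers it was 6 with RLE factors, 4 with upper-quartile factors (median 0.0324) and 1 with library size alone. In knockout gels against monolayers it was 8 with upper-quartile factors (median 0.0386) and 9 with library size alone (median 0.0249). Over all genes, library size alone gave 1239 higher and 2804 lower in control gels against monolayers, where TMM gave 2486 and 1672, and 2089 higher and 3539 lower in knockout gels against monolayers, where TMM gave 3122 and 2793. All genes called numbered 3721 in knockout against control gels (DESeq2 2358, adjusted p under 0.01 2231), 2989 in knockout against control monolayers (1746 and 1749), 4158 in control gels against monolayers (2427 and 2533) and 1028 for the interaction (651 and 502). Leaving out each library in turn gave 7 to 27 subunits and a median of 0.0722 to 0.1615 in knockout against control gels (all genes 2106 to 3914), 1 to 16 and 0.0551 to 0.1089 in knockout against control monolayers (1848 to 3224), 8 to 20 and 0.0581 to 0.1476 in knockout gels against monolayers (4191 to 6028), 0 to 13 and 0.0281 to 0.0959 in control gels against monolayers (2144 to 4501), and 0 to 2 and -0.021 to 0.0873 for the interaction (413 to 1334). All genes called fell most without control gel library 1 (2106), control gel library 2 (2160) or knockout gel library 2 (2258) in knockout against control gels, without knockout monolayer library 1 (1848) or control monolayer library 1 (1872) in knockout against control monolayers, and without control gel library 1 (2144), control gel library 2 (2667) or control monolayer library 1 (2359) in control gels against monolayers. For the interaction they numbered 413 without control gel library 1, 627 without control gel library 2, 662 without control monolayer library 1 and 623 without knockout gel library 2 or knockout monolayer library 1. The cause was not tested. With 1 library left in a group, that library is assumed to vary like the others. Low counts limit NDUFA7, NDUFV2, NDUFA9 and NDUFB8. Of the exon bases of NDUFA7 and NDUFB8, 32.3% and 33.8% overlap another gene on the same strand. The part of such overlap in the low counts was not tested.

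Whether replicate numbers pair the libraries is not known. The deviations of same-numbered libraries had correlations of -0.063 to 0.082 across genes, which cannot exclude a small shared effect. With the number as a replicate block, 19 subunits were called in knockout against control gels, 16 in knockout against control monolayers, 15 in knockout gels against monolayers, 10 in control gels against monolayers and 1 for the interaction.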
